A study of Homo sapiens with 8 samples.

Results

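The MYC and PVT1 locus was taken as the hg38 interval from 500 kb upstream of the MYC gene start to 500 kb downstream of the PVT1 gene end, chr8:127235434-128687101, a length of 1.45 Mb. Its members were the peaks with a summit in that interval, chosen by position alone and not by their values. There were 29 of the 93526 peaks in the 4 lists examined. CTCF replicate 1 gave 15 of its 42765 peaks, CTCF replicate 2 gave 10 of 36082, Sp1 antibody 1 gave 2 of 8706 and Sp1 antibody 2 gave 2 of 5973.

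The lists came from chromatin immunoprecipitation followed by sequencing (ChIP-seq) in U-2 OS, a human osteosarcoma line, after 6 min in 1% formaldehyde. The study made these libraries beside CUT&RUN, another sequencing assay of binding, and beside live-cell assays of Sp1. They record where Sp1 and CTCF were recovered on chromatin. Each Sp1 antibody (MA5-32497 is antibody 1, PA5-29165 is antibody 2) and the normal rabbit IgG (ab46540) has 1 library, all from cells with V5-Halo-SP1 knocked into the endogenous gene, which the sample titles nonetheless call parental. CTCF (ab128873) has 2 replicate libraries from clone C32, a single clone with endogenous FLAG-Halo-CTCF. Both proteins therefore carried a tag in the cells in which they were assayed, every library came from U-2 OS, and no library received a treatment beyond the crosslink. For CTCF the sample labels were followed, although the text on the series speaks of wild-type cells and a legend in the supplement of the Sp1 knock-in line. Sp1 and CTCF were thus assayed in different lines, so the protein, the line and the antibody cannot be told apart in any contrast between them. Nothing states that the CTCF replicates came from separate cultures, and no p-value was computed, since the lists hold no read counts and each Sp1 antibody has 1 library.

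MYC encodes a transcription factor that pairs with MAX and drives growth and proliferation genes, and it is among the most widely deregulated oncogenes in human cancer. PVT1, its downstream neighbor, is a long noncoding RNA gene that hosts several microRNAs and is often gained together with MYC, and the surrounding gene-poor interval holds many distal enhancers of MYC. CTCF is a zinc finger protein first described as a factor bound to the MYC promoter. Its recognition sequence has a direction, and sites whose cores point toward each other often flank chromatin loops formed with cohesin. Sp1 is a zinc finger activator that binds GC boxes, mostly in promoters. No contact between sites, expression level or copy number was measured in these files.

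MYC (ENSG00000136997.22) occupies chr8:127735434-127742951 on the plus strand and has 14 annotated start sites spread over 3.64 kb. PVT1 (ENSG00000249859.14) occupies chr8:127794526-128187101 on the same strand, begins 59092 bp after the MYC start and has 132 annotated start sites over 326 kb. Of the 25 genes that overlap the interval, 24 have a start site inside it, and only MYC and POU5F1B, a retrogene related to the pluripotency factor gene POU5F1, code for protein. Distances below run from the MYC gene start to the peak summit, in the direction of MYC transcription. That gene start is the most upstream of the 14, and the canonical transcript begins later, between 0.738 and 0.815 kb after it. Peaks upstream of MYC thus lie farther from the canonical start than the distances given.

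The strongest peak of the locus in both CTCF replicates stood just upstream of MYC. All CTCF peaks upstream of and within MYC were found in both replicates, whereas PVT1 held low peaks that replicate 2 mostly lacked. In the genome, 79.8% of replicate 1 peaks were overlapped by replicate 2, and 34.6% of those with folds as in PVT1. Place and fold cannot be told apart here. Sp1 antibody 1 gave peaks only at MYC, and Sp1 antibody 2 gave peaks only inside PVT1. Nothing was called in any list between the end of MYC and the start of PVT1, a stretch of 51574 bp. The IgG list held 106 peaks in all, 1 of them on chromosome 8 and 0 in the locus.

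**Figure D1:**
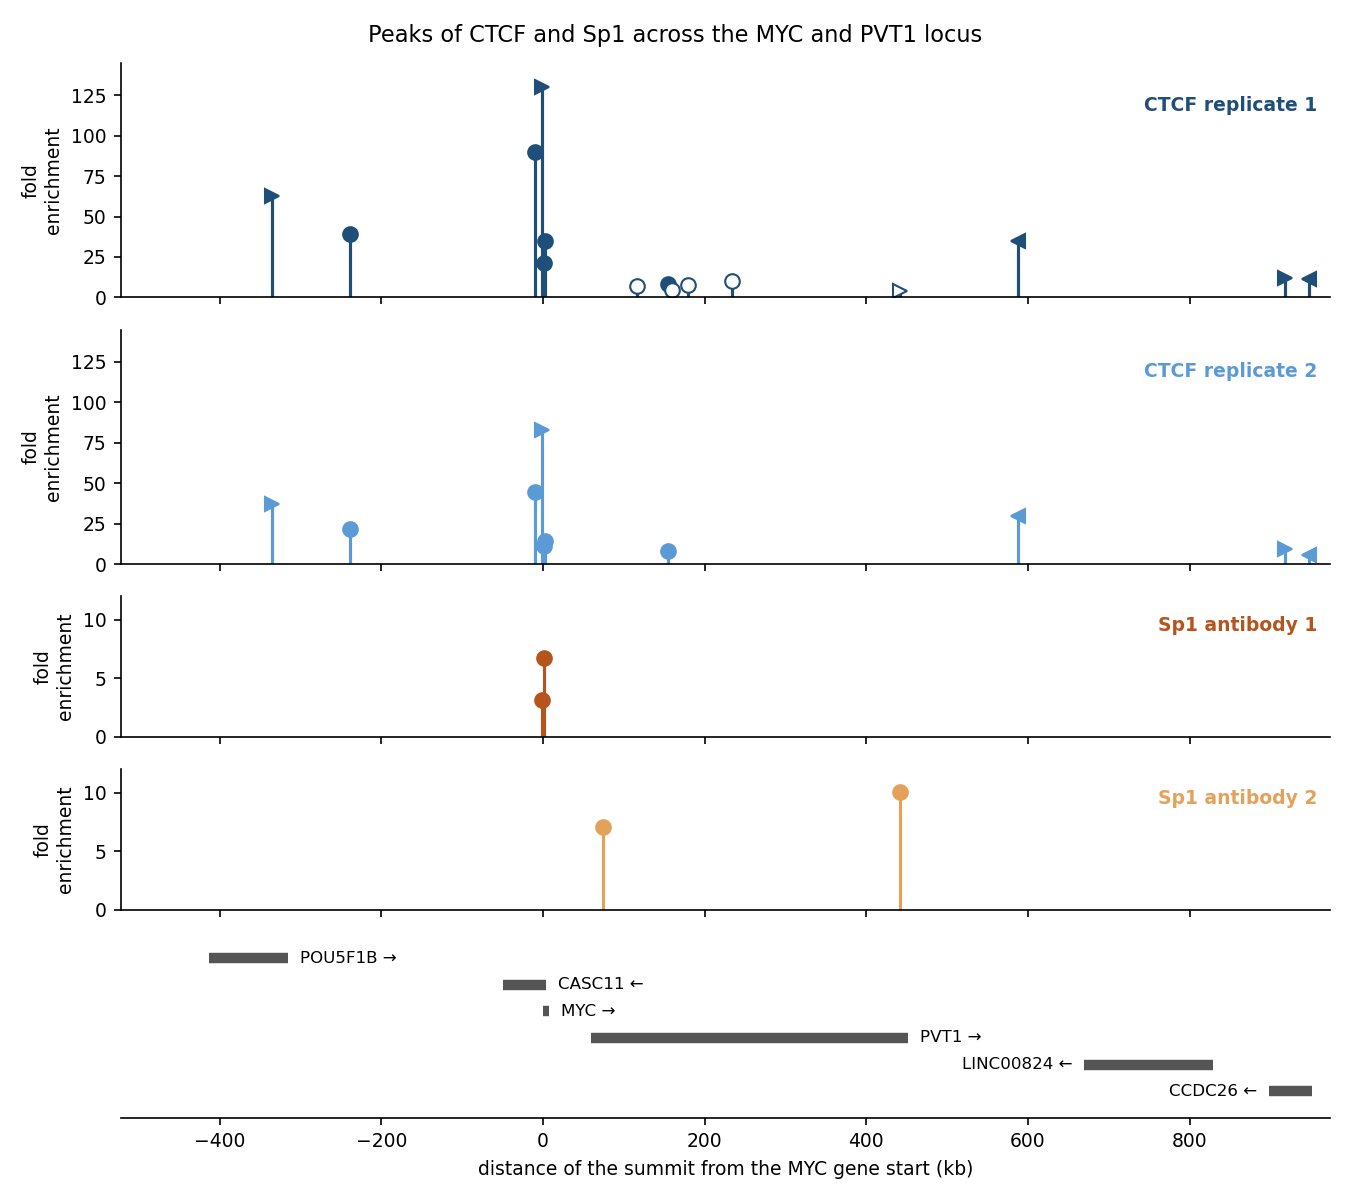
Fold enrichment (y axis, linear, with a smaller scale for Sp1) of every peak in the locus against the distance of its summit from the MYC gene start in kb, 1 panel per library, with selected genes and their direction below. In the CTCF panels, triangles point in the direction of the CTCF core, circles have no core with at most 1 mismatch, and open symbols have no peak in the other replicate; the highest CTCF peaks, at 130 and 82.8, lie beside the MYC start, and the 5 open symbols all lie inside PVT1.

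CTCF sites are called shared where a replicate 1 peak is overlapped by at least 1 bp of a replicate 2 peak, and the 10 shared sites were numbered 1 to 10 along the chromosome. Of the 15 replicate 1 peaks in the locus, 10 were shared, or 66.7% (95% Wilson interval 41.7 to 84.8%), beside 79.8% of the whole replicate 1 list. All 10 replicate 2 peaks were overlapped by replicate 1 (72.2 to 100%), beside 95.4% of the whole list. These intervals cover counting error only, and neither share stood clear of its background. The summits of the replicates lay a median of 5 bp apart at the shared sites, and 22 bp apart at most.

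Sites 3, 4, 5 and 6 lay around the MYC promoter. Site 4 was the highest, 1.33 kb upstream of the MYC start (replicate 1 summit chr8:127734101). Fold is the enrichment at the summit over the background used in the authors' peak calling. At site 4 it was 130 in replicate 1 and 82.8 in replicate 2, a mean log2 fold of 6.70 ± 0.46 (SD, n = 2). The −log10 q at the summit was 1707 and 1045. Of the respective lists, 91.9% and 94.9% of peaks had a lower fold, so this site stood near the top of both. The summit lies in an intron of CASC11, a long noncoding RNA gene that overlaps MYC on the opposite strand, and 134 bp from an annotated CASC11 start site.

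Site 3 lay 9.55 kb upstream of MYC, also in a CASC11 intron. Its fold was 89.95 in replicate 1 and 44.8 in replicate 2, with a −log10 q of 1091 and 499 and a mean log2 fold of 5.99 ± 0.71 (SD, n = 2). It was the second highest site of the locus in each replicate. Its replicate 1 interval, at 1486 bp, was the widest of the locus.

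Sites 5 and 6 lay inside the annotated extent of MYC and were lower. Site 5, 0.826 kb after the gene start, fell in the first exon of the canonical transcript, close to where that transcript begins. It was 29 bp from an annotated start site, in sequence that is annotated as coding in some MYC transcript. Its fold was 21.0 and 10.9, with a −log10 q of 199 and 90.9. Site 6, 2.41 kb after the start, fell in an untranslated exon segment 95 bp from another annotated start, with a fold of 34.8 and 14.2 and a −log10 q of 290 and 98.96. In each replicate both were below sites 3 and 4. The gap between sites 4 and 5 was 2.16 kb and that between sites 5 and 6 was 1.58 kb. Only 3.33% and 1.74% of the gaps between adjacent shared sites in the genome were shorter.

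MYC thus had 3 shared CTCF summits within 5 kb of its 5′ end. That was a property of 0.401% of protein-coding genes, counting those with 3 or more, and it places MYC among 80 of 19970 genes. Of these, 7 had more than 3, and the maximum was 4. The locus was proposed with earlier results in view, so this rank is a description of MYC and was not tested.

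**Figure D2:**
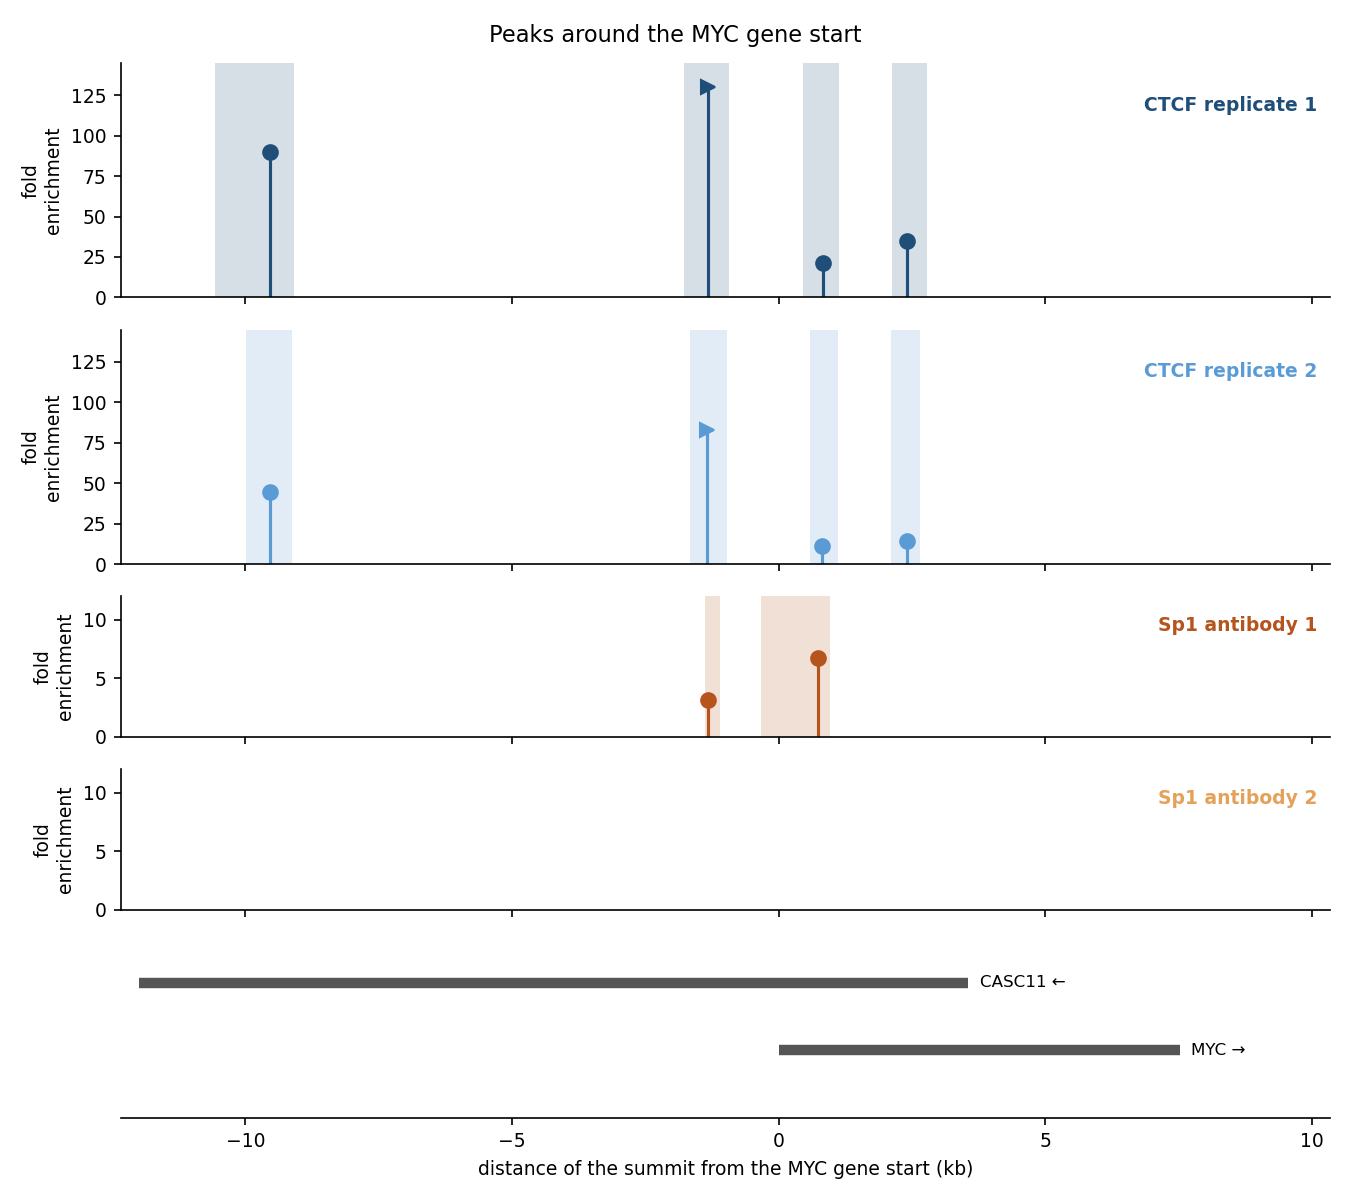
Peaks from 12 kb upstream to 10 kb downstream of the MYC gene start, with fold enrichment on the y axis (linear, smaller scale for Sp1), summit distance in kb on the x axis and peak intervals as shaded bands; symbols are as in the map of the whole locus. CTCF sites 3 to 6 are present in both replicates, the Sp1 antibody 1 peaks of fold 3.16 and 6.72 sit on sites 4 and 5, and Sp1 antibody 2 has no peak here.

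Farther upstream, site 1 lay 335 kb before MYC. It fell in the annotated exon of CCAT2, a colon cancer-associated noncoding RNA gene, 436 bp from its start, and in introns of PCAT1, CASC8 and POU5F1B. Its fold was 63.0 and 37.0, its −log10 q was 649 and 327, and its mean log2 fold was 5.59 ± 0.54 (SD, n = 2), which ranked 3 among the 10 sites. Site 2, an intergenic site 239 kb before MYC, had a fold of 39.1 and 21.7 and a −log10 q of 276 and 139. Its mean log2 fold of 4.87 ± 0.60 ranked 5. Over the 4 sites upstream of MYC the median fold was 76.5 in replicate 1 and 40.9 in replicate 2, against medians of 27.5 and 20.0 over the whole lists.

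PVT1 looked different. It held 6 replicate 1 peaks, with a median fold of 7.05 and a range of 3.79 to 10.0, and only 1 of them, site 7, was overlapped by replicate 2. Site 7 lay 155 kb after the MYC start in a noncoding PVT1 exon, 2 bp from an annotated PVT1 start site, and had a fold of 8.17 and 8.01 with a −log10 q of 47.7 and 38.5. The other 5 peaks were in replicate 1 only. The highest of these, 234 kb after MYC in a PVT1 intron, had a fold of 10.0 and a −log10 q of 37.9, and the nearest replicate 2 summit was 79.2 kb away. The lowest, 442 kb after MYC, had a fold of 3.79 and a −log10 q of 6.85. The other peaks of this kind, at 117, 159 and 179 kb, had a fold of 6.74, 4.66 and 7.37. Replicate 2 had no peak of its own in the locus.

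All 9 replicate 1 peaks outside PVT1 were shared, beside 79.8% of the whole replicate 1 list. No background of like fold was taken for these 9, so their share is not read as a trait of the place. Their folds, from 11.1 to 130, did not overlap the range in PVT1. The low share inside PVT1 therefore had to be read against peaks of like fold. Of all replicate 1 peaks in the genome with a fold in the range seen in PVT1, 34.6% were overlapped by replicate 2, beside 1 of 6 in PVT1 (16.7%, Wilson interval 3.01 to 56.4%). The PVT1 share was not distinguishable from that background at this number of peaks. Relative to the whole replicate 1 list, between 3.20% and 27.8% of peaks were lower than the 5 unshared ones.

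**Figure D3:**
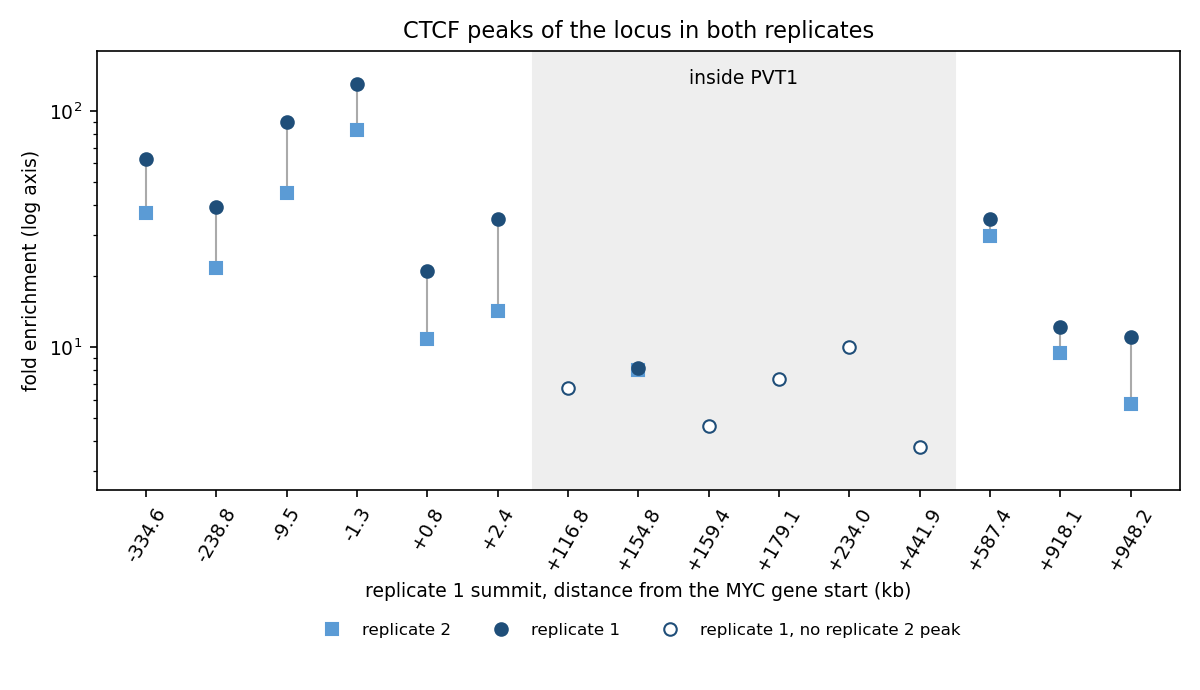
Fold enrichment (log axis) of the 15 CTCF replicate 1 peaks of the locus in order along the chromosome, labeled by summit distance from the MYC gene start in kb, joined to the replicate 2 peak where there is one. Circles are replicate 1 and squares replicate 2, the gray band marks PVT1, and the 5 open circles in it, at folds of 3.79 to 10.0, have no replicate 2 peak.

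The start of PVT1 itself had no peak. The nearest CTCF summit to the first PVT1 start site was 56.7 kb away in both replicates, and it belonged to site 6 in MYC. The nearest Sp1 antibody 2 summit was 15.2 kb away, and the nearest Sp1 antibody 1 summit was 58.4 kb away. Of the 132 annotated PVT1 start sites, 21 had a replicate 1 summit within 5 kb and 7 had a replicate 2 summit there, and all of these are internal to the gene.

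Downstream of PVT1 there were 3 shared sites. Site 8, 587 kb after MYC, was intergenic and 284 bp from the start of the noncoding gene ENSG00000286034. Its fold was 35.0 and 29.5, its −log10 q was 390 and 236, and its mean log2 fold of 5.01 ± 0.17 (SD, n = 2) ranked 4. Site 9, 918 kb after MYC in an exon of the noncoding gene CCDC26, had a fold of 12.2 and 9.45 and a −log10 q of 64.6 and 39.0. Site 10, 948 kb after MYC in a CCDC26 intron, had a fold of 11.1 and 5.75 and a −log10 q of 45.3 and 16.5. Thus site 8 reached the level of site 6 in replicate 1 and exceeded it in replicate 2, while sites 9 and 10 were closer to the sites inside PVT1.

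Fold enrichment was lower in replicate 2 at 10 of 10 shared sites, as it was at 33179 of the 34125 shared sites of the genome. The median log2 ratio of replicate 2 to replicate 1 was −0.81 in the locus, with a range from −1.29 at site 6 to −0.03 at site 7. Over all shared sites it was −0.89, with quartiles of −1.17 and −0.62. No site of the locus lay outside the central 95% of shared sites, −1.85 to 0.03. The sites farthest from the genome median were site 7, 0.86 above it, site 8, 0.65 above it, and site 9, 0.52 above it. These are the first 3 shared sites after MYC, but site 10, the last one, differed from the median by only −0.06. Each of the sites upstream of and in MYC lay within 0.40 of the median. The 3 sites were picked as the most deviant, and a link of the ratio to place was not tested. The order of the sites was nearly the same in both replicates. Across the 10 sites, Spearman's rho of the fold was 0.98 and Pearson's r of log2 fold was 0.96, beside 0.95 and 0.95 across the 34125. These describe sites that share the same 2 libraries and the sequence at each site, and they carry no p-value.

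**Figure D4:**
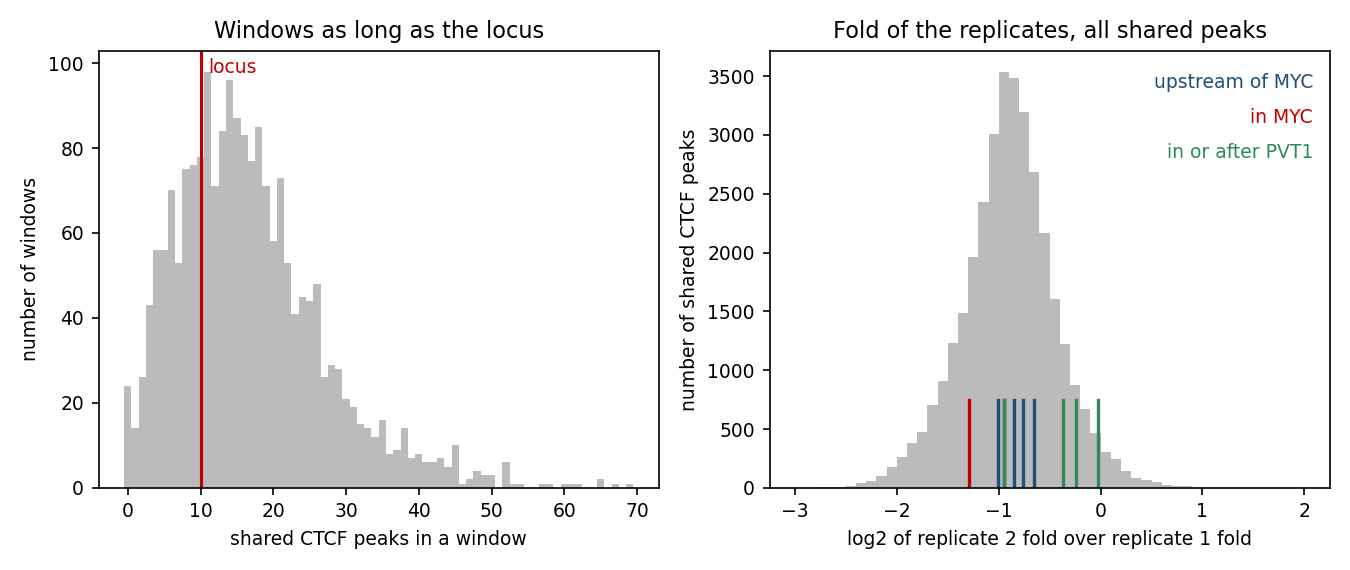
Left, number of genome windows as long as the locus (y axis) by the number of shared CTCF peaks they hold (x axis), with the locus, at 10, as a red line; right, number of shared CTCF peaks by the log2 ratio of replicate 2 to replicate 1 fold in gray, with the 10 sites of the locus as ticks colored by place. The locus sits at the lower quartile of the windows, and its ticks run from −1.29 to −0.03 within the bulk of the gray distribution.

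The number of shared CTCF sites in the locus was at the lower quartile of windows of its length, and the sites were closely spaced at MYC. The locus held 6.89 shared sites per Mb, beside 10.8 on chromosome 8 and 11.7 in the genome. With 250 kb and 1000 kb on either side instead of 500 kb, the density was 7.36 and 8.97 per Mb. Of 1975 windows of the same length tiled over the chromosomes, 25.0% held fewer than 10 shared sites, and the quartiles were 10, 15 and 22. The median distance between adjacent shared summits was 95.8 kb in the locus, with a range of 1.58 to 433 kb, and 41.7 kb in the genome, with quartiles of 14.3 and 102 kb. When replicate 1 peaks alone were used, the median in the locus became 46.4 kb, since the PVT1 peaks then counted. The widest gap, 433 kb between sites 7 and 8, spans the distal part of PVT1, and 97.55% of the genome's gaps were shorter. The gap that follows, 331 kb between sites 8 and 9, exceeded 95.7% of gaps. The share of shared sites near a start site was higher in the locus than in the genome. A summit within 1 kb of an annotated start was found for 6 of 10 shared sites (60%, Wilson interval 31.3 to 83.2%), beside 20.6% of all shared sites. Sites 4, 5 and 6 of these 6 are neighbors at the MYC and CASC11 starts, and the interval treats the sites as independent. MYC has 14 and PVT1 132 annotated starts, and the share was not adjusted for the number of starts.

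The CTCF core, the 12 bp center of the CTCF recognition sequence, was sought on both strands of the hg38 reference within 50 bp of each replicate 1 summit, with at most 1 mismatch. It was found in a single orientation at 5 of the 10 shared sites (50.0%, Wilson interval 23.7 to 76.3%), beside 56.2% of all shared sites and 0.768% of windows 1 kb away from them. Of the 5 oriented cores, 3 were on the plus strand (60%, 23.1 to 88.2%), beside 50.6% in the genome. Both genome shares lay inside the intervals of the locus. A match is a description of the reference sequence and was not shown to be the bound site.

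Site 4, the strongest of the locus, was the only site with an exact core. It lay on the plus strand with its center 13.5 bp from the summit. Sites 1 and 9 had a plus-strand core with 1 mismatch, and sites 8 and 10 had a minus-strand core with 1 mismatch. Cores therefore pointed in the direction of MYC transcription at sites 1 and 4 upstream of MYC, and the next oriented core beyond MYC and PVT1, at site 8, pointed back. This convergent pair, sites 4 and 8, spanned 589 kb and enclosed both genes, with 3 shared sites between that had no core at this setting. The pair changed with the search. With 2 mismatches allowed, the convergent pair after the MYC start was sites 6 and 7, and under a weight matrix described below it was sites 6 and 8, and neither pair encloses MYC. Among the 4 successive pairs of oriented sites, 1 was tandem, 2 were convergent and 1 was divergent. The divergent pair, sites 8 and 9, and the convergent pair of sites 9 and 10 rest on site 9. The orientation of that site depended on the method, as described below. In the genome 48.9% of such pairs were tandem, 25.5% convergent and 25.6% divergent, and 4 pairs are too few to set against these.

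Sites 2, 3, 5, 6 and 7 had no core with at most 1 mismatch. With 2 mismatches allowed, 9 of 10 sites had an orientation, and sites 3 and 6 were then on the plus strand and sites 2 and 7 on the minus strand. The same setting also found a core in 6.76% of the windows 1 kb away, so these assignments are weaker. Site 5, in the first exon of MYC, had no core even then, although its fold of 21.0 and 10.9 was above those of sites 9 and 10, which had one. A weight matrix built from cores with at most 1 mismatch on other chromosomes, an alternative chosen after the data had been seen, placed sites 3 and 6 on the plus strand as well. Under it site 9 had no call, and its best-scoring match lay on the minus strand, so the orientation of site 9 depended on the method. No other site that had an orientation in the first search changed strand under an alternative.

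Sp1 was recovered at MYC with antibody 1 only. Of its peaks, the first had its summit 1.33 kb upstream of MYC (chr8:127734056-127734334), a fold of 3.16 and a −log10 q of 3.33, and only 3.10% of the antibody 1 list had a lower fold. Its summit lay 6 bp from that of CTCF site 4, and a GC box, GGGCGG on either strand, lay within 50 bp. The other (chr8:127735099-127736392), 0.738 kb after the MYC gene start, had a fold of 6.72 and a −log10 q of 14.3. This peak had its summit 88 bp from that of site 5 and 48 bp from an annotated start. There it lay in a MYC exon outside the canonical transcript, upstream of the canonical start. It had no GC box within 50 bp of the summit and 3 within its 1294 bp. Over the whole antibody 1 list, 52.8% of peaks had a GC box within 50 bp of the summit and 83.4% lay no farther than 1 kb from a start site, as both of these did. Both peaks were low to middling for this antibody, whose median fold was 7.72.

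Both antibody 1 peaks lay on CTCF sites. They were 2 of 2 overlapped by CTCF replicate 1 (Wilson interval 34.2 to 100%), beside 28.8% of the antibody 1 list. They were also 2 of 2 with a CTCF replicate 1 summit within 100 bp, beside 8.71% of that list. With 2 peaks and 1 library this is a description of these sites. The IgG library, from the same cells as the Sp1 libraries, had no peak at either. With 106 IgG peaks in all, that absence says little about these sites.

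Antibody 2 gave its peaks elsewhere. Its first lay in a PVT1 intron 74.3 kb after the MYC start and 15.2 kb after the PVT1 start (chr8:127809503-127809835), with a fold of 7.11 and a −log10 q of 16.7, and the nearest CTCF replicate 1 summit was 42.5 kb away. The second lay near the 3′ end of PVT1, 442 kb after the MYC start (chr8:128176585-128177295), with a fold of 10.0 and a −log10 q of 47.1. That was above 76.8% of the antibody 2 list, whose median was 6.75. It overlapped the weakest unshared CTCF replicate 1 peak, of fold 3.79, with summits 238 bp apart. Neither antibody 2 peak had a GC box within 50 bp of the summit, beside 36.7% of the list, and neither lay within 1 kb of a start site, beside 75.2%. The peaks at MYC and those in PVT1 thus differed in their distance to start sites, while a GC box within 50 bp marked 1 of the 2 peaks at MYC and neither in PVT1. Those at MYC were all from antibody 1 and those in PVT1 all from antibody 2. Place and antibody therefore cannot be told apart in this contrast. Each pair rests on 1 library.

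The antibodies did not coincide anywhere in the locus. None of the 2 antibody 1 peaks was overlapped by antibody 2 (0%, Wilson upper bound 65.8%), beside 49.2% of the antibody 1 list. None of the 2 antibody 2 peaks was overlapped by antibody 1 (same bound), beside 71.8% of the antibody 2 list. Of the antibody 2 peaks, 1 of 2 was overlapped by CTCF replicate 1 (9.45 to 90.5%), beside 26.3% of that list, and 0 of 2 had a CTCF replicate 1 summit within 100 bp, beside 8.39%. Of these 4 backgrounds only the 71.8% lay outside the interval of the locus, just above its bound of 65.8%. No Sp1 peak of the locus has a second library behind it.

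Among the 24 genes with a start site in the locus, 6 had a CTCF summit within 5 kb of a start, in both replicates (25.0%, Wilson interval 12 to 44.9%). Over annotated genes of all types the share was 32.2% for replicate 1 and 27.3% for replicate 2. The 6 genes were MYC, CASC11, CCAT2, PVT1, ENSG00000278324, a small RNA gene with the same peak as PVT1, and ENSG00000286034. Sp1 antibody 1 reached MYC and CASC11, which share their peaks (8.33%, 2.32 to 25.8%), beside 19.9% of all genes. Antibody 2 reached none of the 24 (upper bound 13.8%), beside 13.4%. POU5F1B, the other protein-coding gene, and the microRNA genes MIR1204, MIR1205, MIR1206, MIR1207 and MIR1208 hosted by the PVT1 region had no peak within 5 kb of a start site in any list. All 4 genome shares lay inside the intervals of the locus, which treat the genes as independent although some share a peak.

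The highest fold within 5 kb of a MYC start site was 130 in CTCF replicate 1, 82.8 in replicate 2 and 6.72 for Sp1 antibody 1, and no antibody 2 peak was listed. Of the protein-coding genes with a peak in the same list, 85.8%, 91.5% and 29.2% had a lower value. At the 5 kb limit MYC was therefore high for CTCF and below the median of 9.00 for antibody 1. The CTCF values came from site 4, and with a limit of 1 kb to a start site they became 34.8 and 14.2, those of site 6. No rank among genes was taken at 1 kb, and the ranks were not adjusted for the number of starts. For PVT1 the values were 8.17 and 8.01 for CTCF at either limit, with no Sp1 peak.

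The 3 protein-coding genes with the values most like those of MYC, by Euclidean distance in log2(fold + 1) over the 4 lists among 19968 genes, were RAB5IF, FAM133B and INPP5B. RAB5IF, at a distance of 0.117, had a CTCF fold of 122 and 80.6 and an antibody 1 fold of 6.38. FAM133B and INPP5B had antibody 1 folds of 6.39 and 6.09 and CTCF replicate 1 folds of 142 and 135. For PVT1 the nearest genes were SP140L, CA5A and GLOD5, at distances of 0.0711 to 0.0988, all with CTCF folds between 7.87 and 8.58 and no Sp1 peak. This likeness was computed from peak heights in 4 libraries, and nothing else about the genes was compared.

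MYC works in a network of factors that share MAX or its relative MLX as partner, and the same measure was taken for 13 genes of it. A CTCF replicate 1 peak lay no farther than 5 kb from a start of 9 of the 13 (69.2%, Wilson interval 42.4 to 87.3%), beside 51.7% of protein-coding genes. For replicate 2 it was the same number, beside 44.0%. Sp1 antibody 1 had a peak at 8 (61.5%, 35.5 to 82.3%), beside 40.7%, and antibody 2 at 5 (38.5%, 17.7 to 64.5%), beside 27.1%. MYC is itself 1 of the 13, and besides it the counts were 8, 8, 7 and 5. All 4 backgrounds lay inside these intervals, which treat the genes as independent. The list was fixed with earlier results known, so this is a description and was not tested.

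Of the MYC paralogs, MYCN had a CTCF fold of 98.1 and 20.8 and no Sp1 peak. MYCL had a CTCF fold of 69.2 and 20.4 and an antibody 1 fold of 5.39. Like MYC, neither had an antibody 2 peak. In replicate 1 these values were below the 130 of MYC, and in replicate 2 they were further below its 82.8. With a limit of 1 kb both paralogs kept these values and stood above MYC, which then had 34.8 and 14.2. MAX, the common partner, had values closer together, with a CTCF fold of 13.3 and 5.83 and Sp1 folds of 9.03 and 4.30 for antibodies 1 and 2.

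The repressive partners of MAX were mixed. MXD1 and MXI1 had peaks in all 4 lists, with CTCF folds of 37.6 and 16.3 for MXD1 and of 54.5 and 29.1 for MXI1. The Sp1 folds were 20.9 and 44.2 at MXD1 and 29.4 and 11.4 at MXI1, so antibody 2 was the higher at MXD1 and antibody 1 at MXI1. With a limit of 1 kb the antibody 2 value at MXD1 became 14.7, below that of antibody 1. MXD3 had a CTCF fold of 97.8 and 33.7 and an antibody 1 fold of 8.64. MNT and MGA had Sp1 peaks only, at 10.8 and 6.39 for MNT and 9.18 and 6.80 for MGA. MXD4 had none in any list.

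On the MLX side, MLXIPL, which encodes the glucose-responsive factor ChREBP, had the highest CTCF fold of the list, 201 and 85.3. MLXIP, encoding the related MondoA, had 43.7 and 41.4, and MLX had no peak. Neither MLXIPL nor MLXIP had an Sp1 peak. At this limit MYC was second to MLXIPL in CTCF fold in both replicates, and its antibody 1 value was second lowest, above MYCL, of the 8 genes that had one. The CTCF order turned with a limit of 1 kb to a start site. MYC, then at 34.8 and 14.2, was below MXI1, MYCN and MYCL as well as MLXIPL in both replicates. The CTCF peaks of MLXIP dropped out, and those of MXD3 fell to 4.35 in replicate 1 and to no peak in replicate 2. The CTCF values of MXD1 fell to 6.60 and 3.14.

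**Figure D5:**
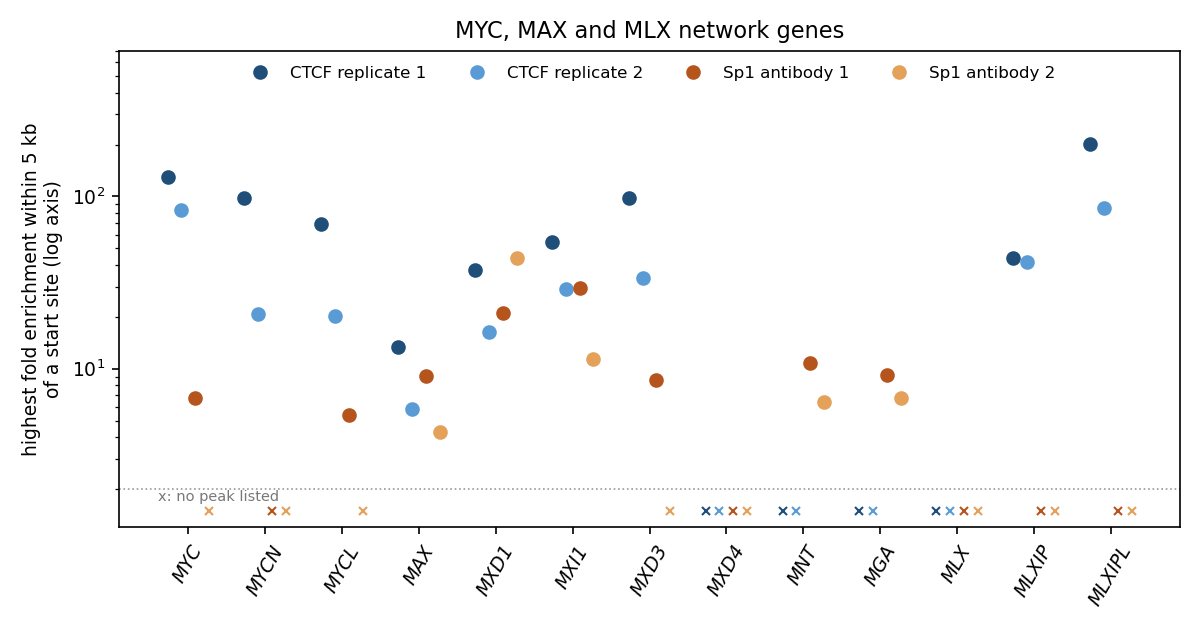
Highest fold enrichment (log axis) of a peak no farther than 5 kb from an annotated start, for 13 genes of the MYC, MAX and MLX network, 1 point per library, with crosses below the dotted line where no peak was listed. MYC, at 130 and 82.8 for CTCF, is exceeded in CTCF fold by MLXIPL alone at this limit, though not with a limit of 1 kb, and 5 of the genes have peaks with both Sp1 antibodies.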

How the data were processed

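Libraries were grouped by their sample labels. Per the submitters' processing notes, the authors used Cutadapt 2.6 for trimming, Bowtie2 2.4.5 for alignment to hg38, samtools 1.15.1 for removing duplicates and MACS2 2.2.7.1 for calling peaks, per library; the methods give other versions of Bowtie2 and samtools. The deposited lists give each peak's fold enrichment (a linear ratio), the −log10 p-value and −log10 q-value of its summit, and a score, of which the p-value and the score were not used. The control, local background and threshold behind the deposited lists are not stated; their lowest −log10 q lay between 1.30 and 1.43. The lists give no read counts, so the depth behind each value is unknown, and a missing peak may reflect depth or threshold.

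Peaks were joined to GENCODE release 44, and the CTCF core and the GC box were searched in hg38, with Python 3.11.15 and pysam 0.24.0. Shared CTCF peaks, the CTCF core, start-site distances and genome backgrounds were defined as stated beside the results. Density is per Mb of sequence outside assembly gaps, and windows with more than 10% gap were left out. On 2000 simulated windows each, planted cores with 0 and 1 mismatches were oriented correctly in 100% and 99.1%, and 0.35% of random windows held a match. Peaks are not replicates, and no p-value was computed. Peaks named with full values were those within 5 kb of a MYC or PVT1 start site, all Sp1 peaks, the 5 shared sites with the highest mean log2 fold, the highest peak found in 1 replicate only, the 3 sites with the most deviant replicate ratio and the ends of the widest gap; values of the remaining members were added. The members, gene lists and rules were chosen with earlier results of these data known. Alternatives changed the q-value limit, the extent of the locus, the definition of overlap, the core search, the replicate used and the distance to start sites. The reference sequence of the sites is not printed here.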

Additional observations from a re-analysis of the deposited data

How the results depend on the processing

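Of 48 alternative values, 37 moved by at most 1.5 times or at most the spread between replicates, and 11 moved further. With 1000 kb instead of 500 kb on either side, the locus held 30 CTCF replicate 1 peaks and 22 replicate 2 peaks, a consequence of the longer interval. The count of oriented cores was 5, with 3 on the plus strand. It became 1, with 1 on the plus strand, when no mismatch was allowed and also under the weight matrix from exact cores, and 9, with 5 on the plus strand, when 2 mismatches were allowed. The weight matrix from cores with at most 1 mismatch, chosen after the data had been seen, gave 6, with 4 on the plus strand. The median spacing of CTCF summits was 95.8 kb without CTCF replicate 1 and 46.4 kb without CTCF replicate 2, and the number of sites was 10 and 15. With 1 kb instead of 5 kb to a start site, the highest CTCF fold near MYC became 34.8 in replicate 1 and 14.2 in replicate 2, which put MYC below MYCN, MYCL and MXI1, and at MXD1 the order of the Sp1 antibodies turned. No paired analysis was possible because no result came from a test and each Sp1 antibody has 1 library. A stricter limit of 3 for −log10 q removed no member. The lists hold no depth, and the absence of a replicate 2 or Sp1 antibody 2 peak is only the absence of a call.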
